A study of Mus musculus with 12 samples.

Results

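The genes of the ribosomal proteins were described here by the openness of their chromatin in mouse T helper cells. Members were all protein-coding genes whose symbol starts with Rpl or Rps and a digit, without the Rps6k kinases and pseudogenes, which gave 85 of 21896 protein-coding genes. Of these, 43 encode proteins of the large subunit, 30 encode proteins of the small subunit, and 12 are copies, retrogenes or other genes that share the naming pattern. A peak, a region of open chromatin called by the authors, was given to a member when its centre lay in the gene's span or within 1 kb of it, which took 225 of 222105 peaks.

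The measurements are ATAC-seq, in which a transposase cuts open chromatin and the reads are counted by position. Naive CD4+ T cells of C57/B6 mice, from spleen and dLN (as the labels abbreviate it), were differentiated in culture into the state named Th17Hom, and 6000 sorted cells went into each library. The 4 groups of 3 libraries were GR WT (WT) control, WT with Dex for 2 days, GR cKO (cKO) control, and cKO with Dex for 2 days. Dex is dexamethasone, a synthetic glucocorticoid, and GR is the glucocorticoid receptor. Which cells and driver the deletion of the receptor uses is not stated by the labels, and all groups are cells grown in culture.

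A ribosome is built from ribosomal RNAs and a set of proteins that are needed in equal amounts, so the genes of its proteins are among the most steadily active in dividing cells. Their promoters are usually rich in CpG and start transcription at a C followed by pyrimidines. This stretch, known as the terminal oligopyrimidine motif, lets the mTOR pathway set how well these mRNAs are translated. Activated T cells raise ribosome production before they divide, and glucocorticoids are known to restrain T cell growth.

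RefSeq promoter entries on GRCm38.p6, the build that mm10 stands for, were matched to 66 of the 85 members. They are shown because a pyrimidine start was more frequent at member entries than over all entries, though most member entries lack its exact form. Of 78 member entries, 14 (17.9%) start exactly at a C followed by at least 4 pyrimidines, against 2.21% of 21262 protein-coding entries. A C within 10 bases of the annotated start and followed by at least 4 pyrimidines was found in 55.1% of member entries and 31.1% of all entries. In the following stretches the last 20 bases begin at the annotated start, the 30 bases before it lie upstream, and capitals mark the pyrimidine runs.
Rpl15: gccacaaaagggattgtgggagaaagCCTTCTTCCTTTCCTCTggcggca
Rpl28: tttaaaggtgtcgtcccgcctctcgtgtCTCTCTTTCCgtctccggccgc
Rpl35: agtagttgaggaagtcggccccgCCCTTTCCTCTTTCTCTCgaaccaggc
Rpl38: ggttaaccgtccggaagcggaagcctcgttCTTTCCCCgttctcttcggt
Rps6: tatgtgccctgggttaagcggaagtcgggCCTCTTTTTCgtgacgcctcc
Rps10: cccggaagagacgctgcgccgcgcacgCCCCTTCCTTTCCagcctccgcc
Rps21: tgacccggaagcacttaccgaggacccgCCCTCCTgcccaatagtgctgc
Rps27: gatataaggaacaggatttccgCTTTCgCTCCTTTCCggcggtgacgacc

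These stretches lie on mm10 for Rpl15 at chr14:18270967-18271016 (minus strand), Rpl28 at chr7:4792935-4792984 (plus strand), Rpl35 at chr2:39005112-39005161 (minus strand), Rpl38 at chr11:114668550-114668599 (plus strand). The other stretches are those of Rps6 at chr4:86857348-86857397 (minus strand), Rps10 at chr17:27635225-27635274 (minus strand), Rps21 at chr2:180257349-180257398 (plus strand), Rps27 at chr3:90213629-90213678 (minus strand). In Rpl38, whose protein is known for its part in translating Hox mRNAs, the run begins at the annotated start itself. In Rps6, whose protein is phosphorylated downstream of mTOR, it begins just before the start. Rps27 carries a pair of runs split by a single g.

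Motifs were searched on both strands from 250 bases before to 50 bases after each start. CCGGAAG, the core bound by ETS factors, was found in 32.1% of member entries, 11.6% of all protein-coding entries and 21.3% of those whose start lies in a peak among the 10% strongest. AAGATGG, the core bound by YY1, was found in 15.4%, 6.24% and 7.46% of them, and GGGCGG, the GC box of Sp and Klf factors, in 56.4%, 46.2% and 70.4%. CACGTG, the E box of Myc and Usf factors, was found in 10.3%, 7.84% and 10.5%, and TATAAA in 8.97%, 12.6% and 5.23%. Of the member entries themselves, 73.1% start in a peak among the 10% strongest, and these shares were not tested. The glucocorticoid receptor's element, taken as AGAACA and TGTTCT separated by 3 bases, was found in 0 of 78 member entries and 0.00941% of all entries. A single arm of it was found in 15.4% of member entries, 16.2% of all entries and 10.9% of those in strong peaks. Matches can share bases, since AAG ends CCGGAAG and begins AAGATGG, and a match is a description of the letters only.

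The promoters of 4 members that the results below turn on are given from 250 bases before to 20 bases after the start, with CCGGAAG and GGGCGG in capitals on either strand (CTTCCGG and CCGCCC when read on the other strand).
Rpl13a: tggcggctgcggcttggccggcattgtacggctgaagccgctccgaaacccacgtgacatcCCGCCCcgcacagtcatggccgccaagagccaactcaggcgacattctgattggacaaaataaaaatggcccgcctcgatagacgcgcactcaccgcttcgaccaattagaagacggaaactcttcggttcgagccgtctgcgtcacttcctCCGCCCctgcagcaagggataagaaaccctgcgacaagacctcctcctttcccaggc
Rpl31: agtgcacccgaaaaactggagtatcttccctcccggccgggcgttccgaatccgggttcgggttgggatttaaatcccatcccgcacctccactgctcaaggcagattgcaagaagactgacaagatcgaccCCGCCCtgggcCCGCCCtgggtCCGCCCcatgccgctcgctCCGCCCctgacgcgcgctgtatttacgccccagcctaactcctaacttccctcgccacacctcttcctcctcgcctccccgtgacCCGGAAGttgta
Rpl37: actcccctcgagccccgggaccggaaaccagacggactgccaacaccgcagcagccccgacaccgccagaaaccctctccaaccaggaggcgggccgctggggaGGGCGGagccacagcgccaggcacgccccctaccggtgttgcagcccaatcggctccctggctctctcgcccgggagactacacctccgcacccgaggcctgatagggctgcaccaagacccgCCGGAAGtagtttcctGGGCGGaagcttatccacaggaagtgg
Rps19: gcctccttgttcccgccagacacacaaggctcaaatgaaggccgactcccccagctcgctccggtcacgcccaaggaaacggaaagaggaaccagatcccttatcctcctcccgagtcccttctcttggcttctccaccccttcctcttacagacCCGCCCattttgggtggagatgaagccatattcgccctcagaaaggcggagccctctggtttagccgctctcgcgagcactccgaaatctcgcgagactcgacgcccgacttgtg

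They lie on mm10 for Rpl13a at chr7:45128726-45128995 (minus strand), Rpl31 at chr1:39367601-39367870 (plus strand), and for Rpl37 at chr15:5116363-5116632 (plus strand), Rps19 at chr7:24884342-24884611 (plus strand). Rpl31 holds 4 GC boxes and 1 ETS core, and Rpl37 holds both kinds within 50 bases of its start. Rpl13a and Rps19 hold GC boxes but not these ETS letters.

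Of the 85 members, 81 had at least 1 peak and 4 had none: Rpl10l and Rpl39l, which are copies known to be active in the testis, and the copies Rpl32l and Rps27rt. The filter on low counts kept 213 of the 225 member peaks. Each of the 81 members is described by its strongest peak, the tested peak with the highest mean over all 12 libraries in CPM, counts per 1000000 counts of the library after TMM scaling. A further 132 tested peaks are given as its other peaks. The strongest peaks marked the starts: of 62 members with a RefSeq start and a tested peak, the centre lay within 500 bases of a start in 50, at a median distance of 263 bases. For 7 members it lay more than 1000 bases away: Rpl18, Rpl19, Rpl37rt, Rpl3l, Rpl4, Rps18 and Rps23rg1. In 20 of the 81, the strongest peak also lay within 1 kb of another coding gene, for example Cacnb1 at Rpl19, Sphk2 at Rpl18 and Msrb1 at Rpl3l, and the 2 genes cannot be told apart there.

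The ribosomal protein genes sat in strong peaks, and so did several other lists of translation genes given below. The median of the 81 strongest peaks was 25.0 CPM (2.77 to 67.0), beside 18.2 CPM over the strongest peaks of all protein-coding genes, chosen in the same way. Of the 81, 70 (86.4%) were among the 10% strongest peaks of the genome, and 61.0% of the strongest peaks of all protein-coding genes were. The median over all tested peaks was 1.25 CPM. Per kb of peak length the median was 15.0 CPM, close to the 13.4 CPM per kb of the strongest peaks of all 15354 protein-coding genes that have one and below the 19.2 CPM per kb of the 10% strongest peaks. The 132 other peaks of members were weak, with a median of 1.06 CPM. Large and small subunit genes lay side by side, with medians of 14.2 and 14.9 CPM per kb.

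Per kb of peak, the order began with Rpl13a, whose protein also silences inflammatory mRNAs in the GAIT complex, at 49.1 CPM per kb. Rpl27 followed at 36.9 CPM per kb, Rpl37 at 36.3, Rps27 at 34.2, Rps21 at 32.0 and Rps29 at 29.4. Rpl41, which encodes the smallest ribosomal protein, had the highest count of all members at 67.0 CPM but a wide peak, which put it at 26.2 CPM per kb. The 10 members with the highest CPM also included Rpl36al, Rpl30 and Rpl18, at 20.4, 21.6 and 22.7 CPM per kb. Low densities were those of Rpl19 at 5.29 and Rpl39 at 7.15 CPM per kb. The Rpl19 value is that of a peak whose centre lies more than 1000 bases from the start of its nearest RefSeq promoter entry. By CPM the lowest members were Rps23rg1 (2.77), Rpl37rt (3.48), Rps4x (7.84), Rpl19 (9.32) and Rpl26 (10.1).

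At Rpl13a (peak chr7:45128317-45129649) the WT control libraries read 68.9, 71.7 and 63.0 CPM, and the WT Dex libraries 75.4, 74.3 and 65.4 CPM. The cKO control libraries read 59.8, 63.1 and 52.7 CPM, and the cKO Dex libraries 63.8, 69.5 and 57.7 CPM. The groups overlapped, with the lowest value in a cKO control library and the highest in a WT Dex library. At Rps6 (chr4:86856399-86858141), the steadiest member, all 12 libraries lay between 27.2 and 33.7 CPM. Across the 81 members the highest library was 1.24 to 2.96 times the lowest, with a median of 1.47, and stayed under 2 times in 79. The exceptions were Rpl26 at 2.24 and the retrogene Rps23rg1 at 2.96.

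**Figure D1:**
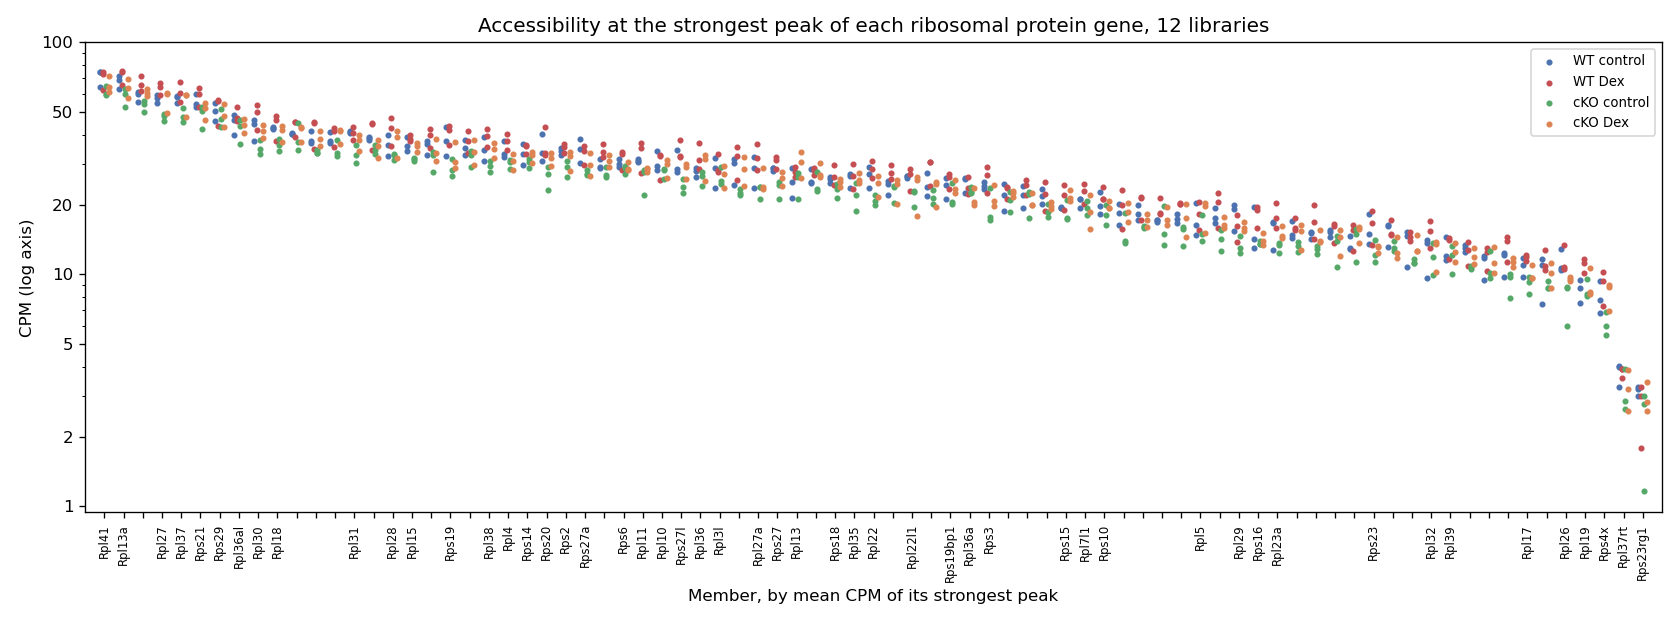
Normalised counts (CPM, log axis) at the strongest peak of each of the 81 members with a tested peak, ordered by mean CPM, with 1 point per library coloured by group (3 libraries a group) and a part of the members labelled. The members run from 67.0 CPM at Rpl41 to 2.77 CPM at Rps23rg1, while the 12 libraries of a member lie close together.

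Library totals ran from 12988437 to 25081591 counts. The targeted gene Nr3c1 had 0 of 18 tested peaks called between genotypes in either condition (edgeR quasi-likelihood test), with 4 peaks in control and 3 with Dex at an unadjusted p under 0.05. Open chromatin at a gene with a deleted exon need not change, so this checks neither the labels nor the deletion. The strongest peaks of 6 T helper genes with a tested peak ran from 11.5 to 43.2 CPM (median 37.4, highest at Cd4), and 5 of them were among the 10% strongest peaks. Those of 6 Th17 genes ran from 4.19 to 40.1 CPM (median 31.9), again with 5 among the 10% strongest. The cytokine genes Il17a and Il17f, which define the Th17 state, were the lowest of them at 4.19 and 13.04 CPM. Markers of other cells covered a wide range. The medians were 4.29 CPM for B cell, 3.78 for CD8 and NK, 10.3 for myeloid and 12.8 for erythroid and stromal markers, and the highest were 41.4, 14.1, 17.4 and 49.9 CPM. Among the 10% strongest peaks were 1 of 4, 1 of 4, 2 of 7 and 3 of 6 of them. Low markers included Cd8a (0.51 CPM), Lyz2 (0.88) and Gata1 (0.97), beside the high values just given. Ms4a1, Ncr1 and Klrb1c had no tested peak. The summed strongest peaks of 4 of 6 B cell markers were 50.03 to 54.7 CPM in WT control, 45.9 to 52.7 in WT Dex, 46.6 to 59.6 in cKO control and 45.0 to 59.8 in cKO Dex, most of it at Ebf1 (41.4). For 4 of 6 CD8 and NK markers the sums ran from 20.1 to 23.9, 21.2 to 26.1, 18.5 to 25.1 and 19.4 to 24.4 CPM in the same order. For 7 of 7 myeloid markers they ran from 55.9 to 63.4, 59.4 to 64.3, 56.5 to 61.0 and 52.6 to 67.5. For 6 of 6 erythroid and stromal markers they ran from 106 to 114, 109 to 121, 97.4 to 114 and 96.3 to 118. The groups overlapped in these sums. Some weaker marker peaks passed an adjusted p under 0.05 in edgeR's test for Dex in WT, as 0.534% of all peaks did. They lay at Cd28 (log2 0.42), Lck (−0.86), Il23r (−0.73) and Ebf1 (−0.49, group means of 21.4 and 15.2 CPM). Between genotypes with Dex, peaks at Lck (0.94) and Il23r (0.82) passed, as 0.17% of all peaks did. The part of the markers in the results below was not tested.

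With Dex in WT cells, 0 of the 213 member peaks were called at an adjusted p under 0.05 by edgeR's quasi-likelihood test. Over all 202587 tested peaks, 0.534% were called. DESeq2 and limma-voom also called 0 member peaks. In edgeR's test 13 (6.10%) had an unadjusted p under 0.05, which 8.32% of all peaks had. Of these, 1 was a strongest peak, 1.23% of 81, beside 14.1% of the 10% strongest peaks. The fitted log2 fold change was above 0 at 72 of the 81 strongest peaks, with a median of 0.10. The median was 0.00 over all tested peaks and 0.08 both over the 10% strongest and over the strongest peaks of all coding genes. All 3 WT Dex libraries lay above all 3 WT control libraries at 7 members, 8.64% of 81, against 6.96% of all tested peaks and 15.0% of the 10% strongest.

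The largest value was that of Rpl19, a large subunit protein at the surface of the particle, at a peak in the gene that also lies near Cacnb1 (chr11:98021671-98023433). This peak covers the upstream end of the gene's span. It does not cover the start of the nearest RefSeq promoter entry, which lies in another tested peak of Rpl19. It read 7.55, 9.46 and 8.70 CPM in WT control and 11.7, 11.2 and 10.2 CPM in WT Dex, and these groups did not overlap. In the cKO it read 8.22, 9.55 and 8.07 CPM in control and 10.7, 8.36 and 8.24 CPM with Dex, and these overlapped. The log2 fold change with Dex was 0.35 ± 0.15 (SE, n = 3) in WT, with an adjusted p of 0.476 by edgeR's quasi-likelihood test. Rpl36 and Rpl28, both of the large subunit, had the next smallest p at log2 values of 0.21 and 0.21. On the other side were Rpl29 (−0.17), Rps23rg1 (−0.24) and Rps27a (−0.06), which encodes ubiquitin fused to a small subunit protein.

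For 79 of the 81 members the 95% interval of the Dex fold in WT lay within 1.5-fold either way. A change larger than that is thus outside the interval for most members, while smaller changes are not excluded by it. In libraries of many cells, fewer cells with an open peak and a less open peak in each cell cannot be told apart.

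With Dex in cKO cells, 0 of 213 member peaks were called by edgeR's quasi-likelihood test, and 0.00296% of all peaks were. DESeq2 and limma-voom called 0 member peaks. In edgeR's test 20 (9.39%) had an unadjusted p under 0.05, which 5.84% of all tested peaks had. Of these, 13 were strongest peaks, 16.0% of 81. The share was 6.71% over the 10% strongest peaks and 8.25% over strongest peaks of other coding genes among those. The fitted values were above 0 at 77 of 81 strongest peaks, with a median log2 of 0.14 beside 0.09 over the 10% strongest peaks and 0.09 over the strongest peaks of all coding genes. All 3 cKO Dex libraries lay above all 3 cKO control libraries at 18 members (22.2%), against 5.28% of all peaks, 9.12% of the 10% strongest and 11.3% of strongest peaks of other coding genes among those. The Dex medians were 0.17 for the large subunit and 0.13 for the small subunit.

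Rps4x, a small subunit gene of the X chromosome (chrX:102188697-102189564), read 6.0, 6.89 and 5.48 CPM in cKO control and 9.03, 6.98 and 8.82 CPM in cKO Dex, without overlap. Its log2 value was 0.43 and that of Rpl27 was 0.25, both at an edgeR adjusted p of 0.838, and these were among the 3 smallest p above 0. Rpl36a (−0.10) and Rpl7l1 (−0.05) were among the members with the smallest p below 0.

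The Dex effects in WT and cKO were compared directly by the interaction. It was called at 0 of 213 member peaks by edgeR's quasi-likelihood test, against 0.0276% of all peaks. DESeq2 and limma-voom called 0 as well. In edgeR's test 12 member peaks (5.63%) had an unadjusted p under 0.05, which 5.65% of all peaks had. Over the strongest peaks the median difference (Dex in WT minus Dex in cKO) was −0.03, with 28 members above 0 and 53 below. It ranged from −0.10 without cKO Dex library 3 to 0.02 without WT Dex library 3, and was also above 0 (0.005) without WT control library 2. The smallest p was that of Rpl29 (chr9:106428749-106430169), a heparin-binding large subunit protein. It read 19.8, 19.2 and 15.4 CPM in WT control and 16.2, 18 and 13.8 in WT Dex, which overlapped. It read 14.6, 12.4 and 13 in cKO control and 15.9, 16.8 and 15.4 in cKO Dex, which did not. The interaction was −0.44 ± 0.18 (SE, n = 3), with an edgeR adjusted p of 0.811. The 95% interval of the interaction lay within 1.5-fold for 73 of 81 members.

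**Figure D2:**
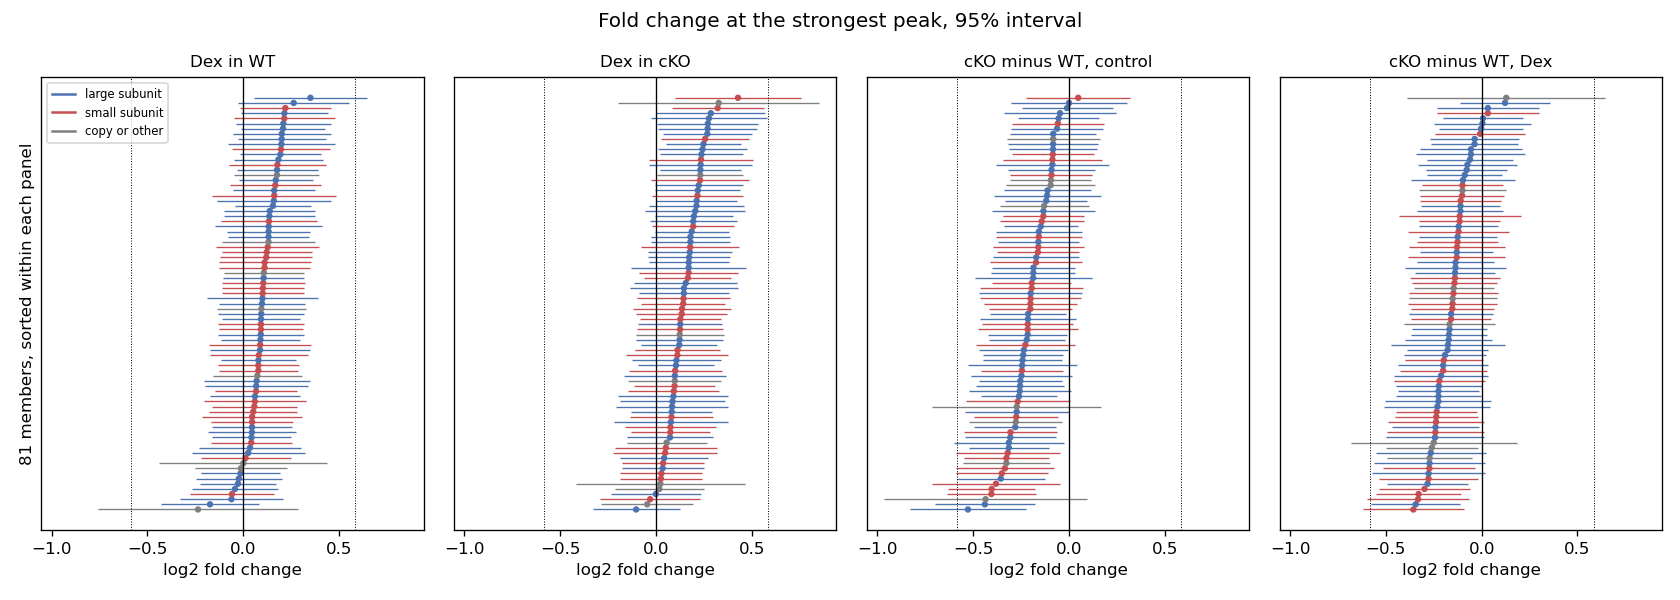
Log2 fold change at the strongest peak of each of the 81 members (points) with its 95% interval (lines), sorted within each contrast and coloured by subunit, with dotted lines at 1.5-fold. Most Dex values sit just above 0 and most genotype values just below 0, and the interval lay within the dotted lines for 79, 79, 70 and 77 members from left to right.

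In control cells the cKO was compared with WT. Of 213 member peaks, 0 were called by edgeR's quasi-likelihood test and 0 by limma-voom, and 0.0104% of all peaks were called in edgeR's test. DESeq2 called 4, all lower in the cKO: Rpl31, Rps20, Rpl22 and Rps19 (0.243% of all peaks were called by DESeq2). In edgeR's test 42 member peaks (19.7%) had an unadjusted p under 0.05, which 7.69% of all peaks had. Of these, 29 were strongest peaks, 35.8% of 81, beside 19.9% of the 10% strongest peaks and 29.9% of the strongest peaks of other coding genes among those.

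The fitted values were below 0 at 79 of 81 members, with a median log2 of −0.20. The median was 0.01 over all tested peaks, −0.13 over the 10% strongest, and −0.17 over strongest peaks of other coding genes among those. Both subunits had the same median of −0.20. All 3 cKO control libraries lay below all 3 WT control libraries at 30 members (37.0%), against 7.6% of all tested peaks, 28.8% of the 10% strongest and 40.9% of the strongest peaks of other coding genes among those. The members' count was therefore above that of all peaks and near that of other strong gene peaks.

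Rps19, the gene most often mutated in Diamond-Blackfan anaemia, had the smallest p (peak chr7:24883664-24885282). It read 32.5, 43.2 and 37.7 CPM in WT control and 28.1, 31.3 and 26.5 CPM in cKO control, without overlap. With Dex it read 43.6, 41.7 and 36 CPM in WT and 37.1, 30.5 and 28.7 CPM in the cKO, with overlap. The log2 difference in control was −0.40 ± 0.11 (SE, n = 3), with an adjusted p of 0.372 in edgeR's test and 0.037 in DESeq2.

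Rps20 (chr4:3834866-3836117), a protein of the small subunit's head, read 31.0, 40.3 and 33.5 CPM in WT control and 23.2, 29.0 and 27.1 CPM in cKO control, without overlap. Its log2 difference was −0.40 ± 0.12 (SE, n = 3), with adjusted p of 0.387 in edgeR's test and 0.0413 in DESeq2. Rpl26 (chr11:68901118-68902054), whose protein lies at the exit tunnel and is known to raise p53 translation, read 10.7, 12.9 and 10.5 CPM against 8.82, 8.72 and 6.0 CPM. Its log2 difference was −0.53 ± 0.15 (SE, n = 3) at an edgeR adjusted p of 0.387. Rpl22, whose loss is known to halt development of alpha-beta T cells, read 23.6, 27.1 and 28.9 CPM against 22.0, 19.8 and 20.6 CPM, without overlap. Rpl31 read 41.5, 40.7 and 40.9 CPM against 30.3, 36.1 and 32.6 CPM, also without overlap. Rpl19 (0.00) was one of the 2 members not below 0.

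With Dex in both genotypes, 0 of 213 member peaks were called between cKO and WT by edgeR's quasi-likelihood test, DESeq2 or limma-voom, and 0.17% of all peaks were called in edgeR's test. In edgeR's test an unadjusted p under 0.05 was found at 23 member peaks (10.8% of 213) and at 8.35% of all peaks. Of these 23, 15 were strongest peaks, 18.5% of 81. The share was 21.8% over the 10% strongest peaks and 26.9% over strongest peaks of other coding genes among those. The median over the strongest peaks was −0.15, with 75 of 81 below 0, beside −0.12 over the 10% strongest peaks and −0.16 over strongest peaks of other coding genes among those. All 3 cKO libraries lay below all 3 WT libraries at 11 members (13.6%), against 6.2% of all peaks and 16.9% of the 10% strongest. The smallest p was that of Rpl27a (chr7:109518501-109519791), which read 31.9, 36.4 and 28.3 CPM in WT Dex and 28.8, 23.8 and 23.5 CPM in cKO Dex. These overlapped slightly, and the log2 difference was −0.34 ± 0.12 (SE, n = 3) with an edgeR adjusted p of 0.309. Rps19 (−0.33) and Rps16 (−0.36) followed, and Rpl13 (0.12), Rps23rg1 (0.13) and Rpl5 (0.03) were the members with the smallest p above 0.

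The contrasts share libraries, so they are not separate results. Dex in WT and genotype in control use the same WT control libraries. Dex in cKO and genotype in control use the same cKO control libraries. Dex in WT and genotype with Dex use the same WT Dex libraries, and Dex in cKO and genotype with Dex the same cKO Dex libraries. The groups' summed levels show them together. Summed over the 81 strongest peaks, the WT control libraries held 2093, 2331 and 2182 CPM, and the WT Dex libraries 2481, 2473 and 2126 CPM. The cKO control libraries held 1853, 2033 and 1875 CPM and the cKO Dex libraries 2221, 2196 and 1937 CPM. The cKO control libraries were the lowest group and lay below every WT library, and Dex libraries overlapped controls in each genotype.

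The share of each library's counts that fell in the 10% strongest peaks of the genome moved with these sums. It was highest in WT Dex library 1 (63.5%) and lowest in cKO control library 1 (57.9%), which were also the highest and the lowest in the members' sum. With this share as a covariate in the fit, the members' median log2 was 0.01 for Dex in WT, 0.06 for Dex in cKO, −0.06 for genotype in control and −0.03 for genotype with Dex. With offsets that centre peaks at every level of signal the same medians were 0.02, 0.05, −0.09 and −0.05. With total counts in place of TMM they were 0.04, 0.09, −0.12 and −0.08. The sign of the members' median was thus kept under all 3. With the covariate the medians over the 10% strongest peaks were −0.016, −0.0002, 0.016 and 0.025 in the same order. With total counts those over all tested peaks were −0.05, −0.06, 0.09 and 0.08. The SD of the members' log2 summed level between libraries of a group was 0.10.

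**Figure D3:**
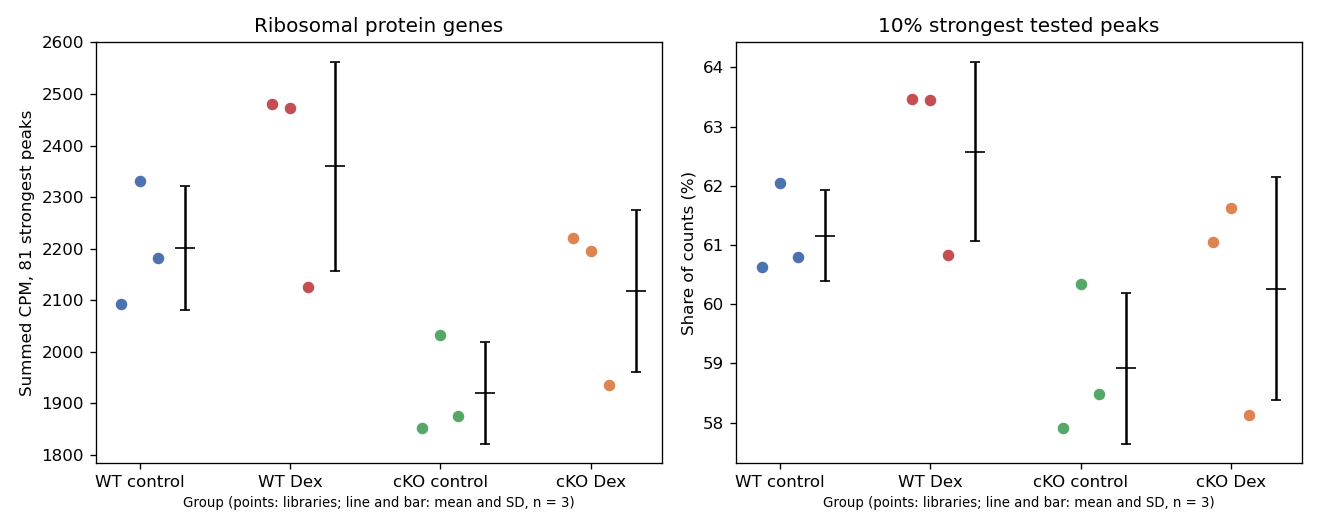
Left, summed CPM at the strongest peaks of the 81 members in each library; right, the share of a library's counts in the 10% strongest tested peaks; points are libraries, and the line and bar give the mean and SD of the 3 libraries of a group. WT Dex library 1 is the highest and cKO control library 1 the lowest in both panels, at 63.5% and 57.9% on the right.

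**Figure D4:**
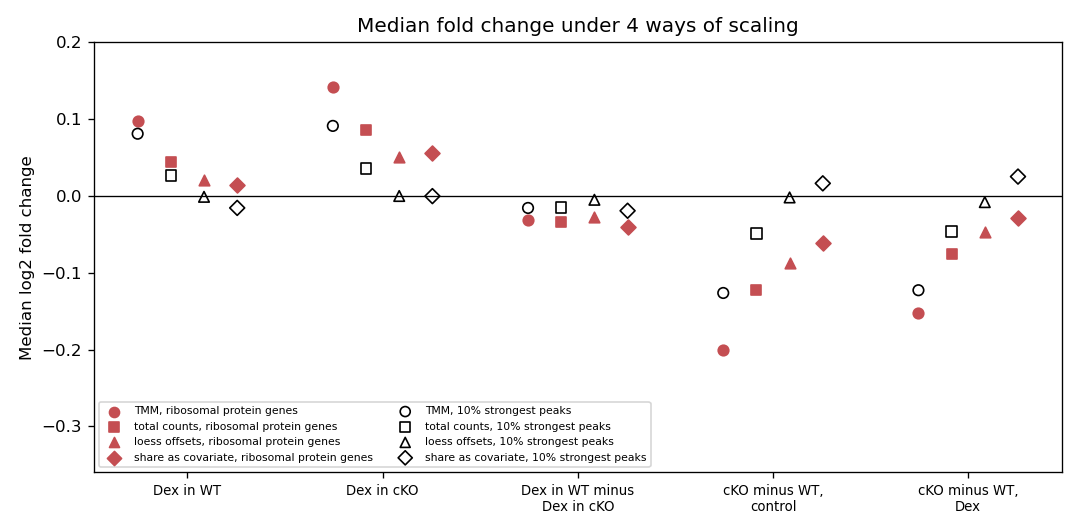
Median log2 fold change of the members' strongest peaks (filled) and of the 10% strongest peaks (open) for the 5 contrasts under 4 ways of scaling. The members' median in control cells between genotypes moves from −0.20 with TMM to −0.06 with the share as a covariate, while its sign stays the same.

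The proteins were also grouped by their place in the ribosome, from textbook knowledge and after the values had been seen, so these groups are a description. Rpl5 and Rpl11 form a particle with 5S RNA that binds Mdm2 and stabilises p53. Rpl5 read 14.7, 20.4 and 16.3 CPM in WT control and 13.9, 18.1 and 15.0 CPM in cKO control, with overlap. Rpl11 read 31.4, 30.9 and 30.6 CPM and 22.1, 27.7 and 28.1 CPM, without overlap.

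The proteins that line or surround the exit tunnel of the large subunit are Rpl4, Rpl17, Rpl23a, Rpl26, Rpl35 and Rpl39. Their genotype values in control were all below 0, with a median of −0.24 and a range from −0.53 at Rpl26 to −0.11 at Rpl39. Rps2, Rps3, Rps15 and Rps23, at the mRNA entry and decoding site, ranged from −0.32 at Rps23 to −0.06 at Rps15. Rps3, which is also a partner of NF-kappaB, read 23.3, 23.9 and 25.0 CPM in WT control and 17.7, 23.5 and 17.2 CPM in cKO control, with overlap. The 13 members known from Diamond-Blackfan anaemia had a median of −0.21 in control and were all below 0, near the −0.20 of all 81.

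Further members with separate roles were compared with and without Dex in WT. Rpl38 read 31.0, 39.1 and 34.4 CPM in WT control and 42.4, 39.4 and 35.4 CPM with Dex. Rpl10, an X-linked gene whose protein joins the large subunit last, read 28.2, 29.5 and 34.2 CPM and 32.5, 32.6 and 25.6 CPM. Rps14 read 29.6, 33.0 and 36.4 CPM and 33.2, 36 and 35.7 CPM. In each of them the WT Dex libraries overlapped the controls.

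Of the 12 copies and other genes, 8 had a tested peak. Rpl22l1, the copy of Rpl22, was as open as its parent, at 22.9 against 19.8 CPM per kb. Its log2 difference between genotypes in control was −0.28, beside −0.36 for Rpl22. Rps27l, a copy known as a p53 target, had 17.9 CPM per kb, Rpl7l1 13.5, Rpl36al 20.4, and Rpl3l, a copy known from muscle, 17.6 at a peak near Msrb1. Rps19bp1, which encodes a partner of the Rps19 protein and not a subunit, had 19.4 CPM per kb and a log2 difference of −0.13 between genotypes in control. Together these 8 copies and other genes had a median of 0.08 for Dex in WT and −0.20 for genotype in control.

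Openness and fold change were also set beside the promoter letters. The 35 members with a GGGCGG match had a median of 18.1 CPM per kb and the 27 without one had 13.02. For CCGGAAG the medians were 16.9 with it (23 members) and 13.3 without (39 members). For AAGATGG the medians were 12.98 with it (9 members) and 15.6 without (53 members). Genotype medians in control were −0.21 with and −0.19 without GGGCGG, −0.21 and −0.20 for CCGGAAG, and −0.21 and −0.21 for AAGATGG. With Dex the genotype medians were −0.16 with and −0.16 without GGGCGG, −0.15 and −0.17 for CCGGAAG, and −0.22 and −0.15 for AAGATGG. For a pyrimidine run near the start they were −0.16 and −0.17. With a pyrimidine run near the start (31 members) the medians were 0.09 for Dex in WT and −0.21 for genotype in control, and without it (31 members) 0.10 and −0.21. These splits are descriptions and were not tested.

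The other peaks of members were examined singly only where an alternative called one. A peak 0.71 CPM in strength near Rps3 (chr7:99476759-99477108) read 0.90, 1.10 and 0.77 CPM in cKO control and 0.08, 0.13 and 0.95 CPM in cKO Dex. Its value with Dex in the cKO thus rests on libraries 1 and 2, with library 3 at the level of the controls. The log2 value was −1.33 with all libraries and −3.06 without cKO Dex library 3, with edgeR adjusted p of 0.838 and 0.033. An other peak of Rpl32 (chr6:115805992-115807640) read 2.36, 1.63 and 2.31 CPM in WT control and 3.34, 3.29 and 4.54 CPM in WT Dex, without overlap. Its log2 value was 0.84 ± 0.24 (SE, n = 3), at an edgeR adjusted p of 0.111. An other peak of Rpl27 (chr11:101446202-101446863) went the other way, at 6.48, 8.38 and 7.30 CPM in WT control and 5.17, 5.75 and 4.71 CPM in WT Dex, without overlap. Its log2 value was −0.51 ± 0.18 (SE, n = 3), at an edgeR adjusted p of 0.299. Between genotypes with Dex, an other peak of Rps10 (chr17:27629261-27630324) read 7.19, 8.87 and 7.94 CPM in WT and 5.41, 5.08 and 6.66 CPM in the cKO, without overlap. Its log2 value was −0.49 ± 0.17 (SE, n = 3), at an edgeR adjusted p of 0.334. With the share of counts in the strongest peaks as a covariate the values were 1.03 for Rpl32, −0.74 for Rpl27 and −0.72 for Rps10. These 3 were then called, 2 of 213 member peaks for Dex in WT beside 1.11% of all peaks, and 1 for genotype with Dex beside 0.887%.

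Between 1 and 5 kb of a member lay 170 further tested peaks, of which 1 (0.588%) was called for Dex in WT, near the 0.534% of all peaks, and 0 in the other 4 contrasts. It is named after its values were seen. It lies 2400 bases beyond Rps19 (chr7:24891566-24892855), with no other coding gene within 5 kb. It read 4.65, 6.5 and 5.36 CPM in WT control and 9.83, 13.1 and 10.3 CPM in WT Dex, without overlap. In the cKO it read 6.60, 5.95 and 6.58 CPM in control and 8.34, 6.98 and 5.49 CPM with Dex, with overlap. It rose with Dex in WT by 1.00 ± 0.17 (SE, n = 3) on the log2 scale, at an adjusted p of 0.000122 in edgeR's quasi-likelihood test. The log2 value with Dex in the cKO was 0.13 ± 0.17, and the interaction was 0.87 ± 0.24 (SE, n = 3) at an edgeR adjusted p of 0.384. Between genotypes with Dex it was −0.67 ± 0.16 (SE, n = 3) at an edgeR adjusted p of 0.0534.

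The rest of the translation machinery was set beside the ribosomal protein genes. One list held 7 ribosomal protein genes outside the naming pattern, such as Rplp0 and Rack1. A list of 7 genes held elongation factors and Tpt1, which is not one of them. Others held 28 initiation factors, 40 ribosome assembly factors and 16 tested genes of the RNA polymerase I machinery. The last held 26 regulators of ribosome production and 78 mitochondrial ribosomal protein genes. In edgeR's quasi-likelihood test no peak of these lists was called in any of the 5 contrasts. Of their 867 tested peaks, 7.96% had an unadjusted p under 0.05 for Dex in WT, 6.34% for Dex in cKO and 4.84% for the interaction, near the 8.32%, 5.84% and 5.65% of all peaks. For genotype 14.2% had one in control and 12.3% with Dex, beside 7.69% and 8.35% of all peaks and 19.9% and 21.8% of the 10% strongest. From 14.3% to 38.9% of a list's peaks were among these strongest. DESeq2 called 14 of the 867 peaks (1.61%) for genotype in control, beside 0.243% of all peaks, and 4 (0.461%) with Dex, beside 0.244%. DESeq2's share over the 10% strongest peaks was not computed. With Dex limma-voom called 1 (0.115%), beside 0.244% of all peaks. The strongest members of these lists were Rplp0 (54.5 CPM), Eif5a (93.4), Eif4a1 (96.7), Nop14 (106), Mnt (172) and Mrpl34 (117). Per kb of their strongest peaks the medians were 17.3 CPM for the ribosomal proteins outside the pattern and 28.8 for the elongation factor list with Tpt1. Initiation factors had 18.5, assembly factors 18.6, the RNA polymerase I machinery 11.8, regulators 19.7 and mitochondrial ribosomal proteins 15.8. The 81 members had 15.0. In that order 100%, 100%, 89.3%, 92.5%, 56.25%, 96.2% and 72.7% were among the 10% strongest peaks, beside 86.4% for the members. Mitochondrial ribosomal protein genes, whose ribosome is a separate machine, had log2 medians of 0.09 for Dex in WT, 0.14 for Dex in cKO, −0.18 for genotype in control and −0.16 with Dex. Those of the cytosolic members were 0.10, 0.14, −0.20 and −0.15.

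**Figure D5:**
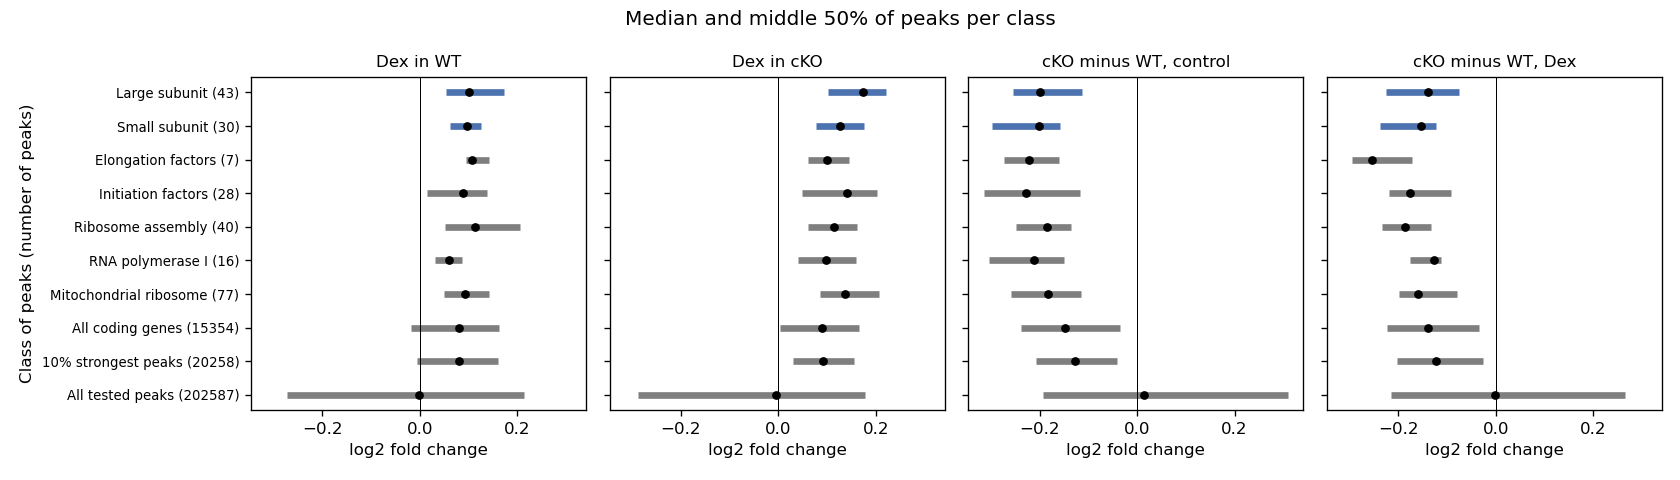
Median (point) and middle 50% (bar) of the log2 fold change over the strongest peaks of each class, with the number of peaks in brackets; cytosolic ribosomal protein genes are in blue. The subunit classes lie beside the other translation lists and slightly further from 0 than the 10% strongest peaks, while all tested peaks centre near 0.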

How the data were processed

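Per the file headers, the authors deposited raw whole-number counts per peak for 12 libraries and 222105 joint peaks. The submitters' processing notes name mm10 and these tools: Genrich 0.6.1 and featureCounts 2.1.1, deepTools 3.5.6, Bowtie2 2.3.5, SAMtools 1.3, Picard 2.18.27 and Trimmomatic 0.39. What each did, the shift for the transposase cut, the counting of reads or fragments, and the samples behind each peak call are not stated there.

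Counts were filtered with filterByExpr in edgeR 4.0.16 (R 4.3.3; minimum count 10, total 15), which kept 202587 peaks. They were scaled by TMM. A model of the 4 groups over all 12 libraries (8 residual degrees of freedom) was tested with the robust quasi-likelihood F-test. P-values are two-sided, and called means an adjusted p under 0.05. In edgeR and limma-voom they are Benjamini-Hochberg adjusted over all tested peaks. DESeq2's adjusted p was taken with its default settings, which can leave peaks of low mean count out of the adjustment. Its shares of called peaks are over all 202587 tested peaks. The SE is the size of the log2 value over the root of F. CPM values come from edgeR's cpm function, counts per 1000000 of the TMM-scaled library total. DESeq2 1.42.0 and limma-voom (limma 3.58.1) were alternatives. The code was tested on simulated data.

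The labels do not name separate animals or cultures behind a group's libraries, and p-values then cover the spread between these libraries only, which may be technical. PCR copies (16 cycles) without molecular identifiers are not independent molecules. Chi-square per degree of freedom between libraries of a group was 2.01 to 3.61, above sampling noise in every pair. The members and lists were chosen with earlier results of these data known. Named members were the 10 highest and 5 lowest by CPM, those without a peak, those called, the 3 smallest p in each direction per contrast, the copies, and a set of members with known separate roles. Rps4l, one of the listed copies, and 4 of 244 list genes were not matched in the RefSeq gene table. Some members and markers that these rules name are not reported here.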

Additional observations from a re-analysis of the deposited data

How the results depend on the processing

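Counts of called member peaks were 0 in all 5 contrasts with edgeR and stayed 0 under total counts, limma-voom, no filter on low counts, the fit of only the groups compared, counts summed per gene and the span alone. With the share of counts in the strongest peaks as a covariate, 2 were called for Dex in WT (Rpl32 and Rpl27, other peaks; 1.11% of all peaks were called) and 1 for genotype with Dex (Rps10, other peak; 0.887% of all peaks). DESeq2 called 4 for genotype in control (0.243% of all peaks), and the window of 5 kb called 1 for Dex in WT. Leaving out 1 library at a time gave 0 to 1 for Dex in cKO, 0 to 1 for the interaction and 0 to 1 for genotype with Dex; each 1 was the weak peak near Rps3 without cKO Dex library 3. The causes were not tested.

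The median over strongest peaks ran from 0.065 to 0.171 for Dex in WT, 0.104 to 0.209 for Dex in cKO, −0.104 to 0.021 for the interaction, −0.219 to −0.146 for genotype in control and −0.232 to −0.079 for genotype with Dex when 1 library was left out. The extremes of the Dex medians came without WT Dex libraries 2 and 3 and without cKO Dex libraries 1 and 3. For genotype with Dex they came without WT Dex library 3 and cKO Dex library 3. The genotype median in control moved to −0.087 with loess offsets, −0.061 with the covariate and −0.054 with counts summed per gene, and that with Dex to −0.048, −0.029 and −0.042. With the covariate 55 and 46 of 81 members were below 0, against 79 and 75, and with loess offsets 60 and 54. For Dex in WT and in cKO, 45 and 58 were above 0 with the covariate and 54 and 60 with loess offsets, against 72 and 77.

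Whether the replicate numbers pair the samples was not settled. Same-numbered libraries correlated in their deviations from the group means at −0.188 to 0.258, and differently numbered ones at −0.210 to 0.245. With the replicate number as a block 0 member peaks were called in all 5 contrasts, and the medians were 0.094, 0.143, −0.042, −0.203 and −0.149; over all peaks the block moved the calls for genotype in control from 21 to 173 and for genotype with Dex from 345 to 1017.

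Values near 0 changed sign. Leaving out 1 library gave ranges of −0.144 to 0.022 for Rps27a with Dex in WT, −0.171 to 0.070 for Rpl7l1 with Dex in the cKO, −0.067 to 0.092 for Rpl19 between genotypes in control, and −0.086 to 0.288 for Rps23rg1 and −0.072 to 0.168 for Rpl5 between genotypes with Dex. Rpl19 in control was also −0.0014 with limma-voom, −0.0046 without the filter and −0.0073 with the block, and Rps23rg1 with Dex was −0.026 with the covariate. None of these was called.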
